A study of Arabidopsis thaliana with 12 samples.

Results

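Seedlings of Arabidopsis thaliana that express KNAT1 from the 35S promoter (35S::KNAT1) were compared with wild-type seedlings while gibberellin (GA) synthesis was blocked by paclobutrazol (PAC). The comparison used 6 of the 12 RNA libraries in the series, 3 per genotype, and every gene in the count table. Both genotypes carry the label of the Nossen accession (No-0). Whole seedlings, 7 days old and raised on MS plates in continuous light, spent 18 h in liquid medium with 10 µM PAC and then 5 h more in the same medium. In the other 6 libraries those last 5 h were spent in 10 µM PAC with 100 µM GA3 (PAC+GA3). The 35S promoter of cauliflower mosaic virus is active in most plant cells, so KNAT1 is not limited here to the cells that normally make it. The labels name a single 35S::KNAT1 genotype. Whether replicates were grown separately is not given there, so the p-values rest on the spread among these libraries, which could be technical. The sampling hour is not given in the sources used here.

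KNAT1, also called BREVIPEDICELLUS, belongs to the class I KNOX family of homeodomain transcription factors and is made in the shoot meristem and young stem and kept silent in leaves. KNOX proteins bind DNA together with BELL homeodomain partners, and when made in leaves they are known to change leaf shape. They are also known to lower GA synthesis and to raise cytokinin synthesis. Paclobutrazol blocks an early oxidation step of GA synthesis, so that the DELLA repressors of GA signalling accumulate, and DELLA proteins can bind transcription factors, KNAT1 among them.

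Between 9232836 and 14053594 reads per library were assigned to genes, and after genes of low counts were dropped 19879 were tested. A gene was called when its edgeR quasi-likelihood p, with Benjamini-Hochberg adjustment over all of these genes, was below 0.05. Under PAC, 5017 genes (25.2% of those tested) were called, 2443 of them higher in 35S::KNAT1 (12.3%) and 2574 lower (12.9%). At least a 2-fold difference was found in 1439 of them (7.24%). Scaled by total counts in place of TMM, the median of all genes moved from 0.004 to 0.10 on the log2 scale and the share of calls that were higher from 48.7% to 67.4%. Levels are CPM, each gene's share of its library's counts after TMM scaling, and log2 differences are 35S::KNAT1 minus wild type, with their SE. Of all counts, genes of the chloroplast and mitochondrial genomes made up 0.944% in wild-type replicate 2 under PAC and 0.676% in replicate 3, and between 0.15% and 0.205% in the other 4 libraries compared. Their rRNA shares were also the highest of the 6, at 0.49% and 0.349%. Without these libraries, and without 35S::KNAT1 PAC+GA3 replicate 1, which had an rRNA share of 1.44%, wild type under PAC is represented by 1 library, assumed to vary like the other groups. That fit called 2524 genes under PAC. Its counts are given below as those without the 3 high-rRNA libraries, while removal of the rRNA and organelle genes themselves left 5027 genes called. Counting intervals and floors given below cover counting error only. A gene near 0 in either genotype could pass the filter only through the other, so its call adds no support for a direction.

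Both genotypes also differed in genes that were present in one and at 0 in the other. In total 66 genes had no count in any wild-type PAC library and at least 10 counts in each 35S::KNAT1 PAC library, and 69 genes had the reverse pattern. They lay on all 5 chromosomes, with 2 and 4 pairs of immediate neighbours. Of the 66, 65 had at most 3 counts summed over the wild-type PAC+GA3 libraries, and of the 69, 66 had at most 3 counts over the 35S::KNAT1 PAC+GA3 libraries. Between media within either genotype, 0 genes met the same rule. The 66 included 19 genes that the count table describes as transposable element genes and 4 as disease resistance genes, and the 69 included 6 and 3. Among the 19879 genes tested, 87 are described as transposable element genes and 106 as a disease resistance protein, the wording that these 4 and 3 carry. An effect of KNAT1, a difference between the lines at other loci and a difference in tissue proportions cannot be told apart with these groups, and this holds for every gene below.

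KNAT1 itself, AT4G08150 on the minus strand of chromosome 4 (5147700 to 5150966, TAIR10), was at 17.59, 19.9 and 24.6 CPM in the wild-type libraries and at 432, 389 and 449 CPM in the 35S::KNAT1 libraries. The lowest 35S::KNAT1 library lay far above the highest wild-type library. The difference was 4.36 ± 0.12 on the log2 scale, 20.5-fold, with an edgeR adjusted p of 3.406e-14. Reads of the transgene and of the native gene cannot be told apart.

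The other class I KNOX genes were lower or did not pass the test. STM, which maintains the shoot meristem, was at 2.86, 2.44 and 3.39 CPM in wild type and at 1.03, 1.22 and 1.06 CPM in 35S::KNAT1, with no overlap (log2 difference -1.38 ± 0.33, edgeR adjusted p = 0.004612). KNAT6, which acts at the boundary of meristem and organ, was at 5.98, 8.0 and 7.62 CPM and at 5.26, 3.92 and 3.49 CPM, again with no overlap (log2 difference -0.76 ± 0.20, edgeR adjusted p = 0.00925). Both calls were lost without the 3 high-rRNA libraries. KNAT2 had a log2 difference of -0.44 ± 0.33 and did not pass the test. Among the class II KNOX genes, which act in differentiating tissue, KNAT3 and KNAT4 were higher by 0.41 on the log2 scale, and neither was called without the 3 high-rRNA libraries. KNAT5 (-0.20) and KNAT7 (0.18), a regulator of secondary walls, did not pass.

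Of 11 BELL genes tested, 2 were called higher and 2 lower, all of them by less than 1.5-fold. BLH4, also called SAWTOOTH2, which shapes leaf margins, fell by 0.40 on the log2 scale, from 21.5, 18.4 and 19.3 CPM to 16.03, 14.8 and 14.2 CPM. BLH9, the PENNYWISE protein that pairs with KNAT1 and STM in the meristem, was at 7.02, 10.3 and 7.81 CPM in wild type and at 12.3, 10.1 and 11.5 CPM in 35S::KNAT1. The groups overlapped, and its call (edgeR adjusted p = 0.03429) was lost without wild-type replicate 1 or 3, without 35S::KNAT1 replicate 1 or 3, in the DESeq2 test and in a fit of the 6 libraries alone. The call of BLH2, at -0.44, was lost without wild-type replicate 1 or 35S::KNAT1 replicate 3, and that of BLH7, at 0.29, without wild-type replicate 1 or 2, 35S::KNAT1 replicate 1 or the 3 high-rRNA libraries. BLH8, ATH1, BLH1, BLH3 and BLH10 were not called, with log2 differences between -0.14 and 0.26. BEL1 (0.30) and BLH6 (-0.32) were called once replicates were paired by their numbers in a block of the 6 or of all 12 libraries, and BLH6 also without wild-type replicate 1. Leaving out wild-type replicate 1, 35S::KNAT1 replicate 1 or 35S::KNAT1 replicate 3 reduced the called BELL genes to 2.

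OVATE family proteins are known to bind KNOX and BELL proteins and to hold some of them out of the nucleus. Their genes were lower where they were called, beside 12.9% of all genes called lower. Of 11 tested, 3 were called lower and 0 higher, or 1 lower without the 3 high-rRNA libraries. OFP1 was at 14.1, 16.5 and 15.3 CPM in wild type and at 5.60, 5.22 and 6.66 CPM in 35S::KNAT1. All 3 wild-type libraries were at more than 2 times the level of any 35S::KNAT1 library, and the log2 difference was -1.40 ± 0.15 (edgeR adjusted p = 1.62e-06). It was -1.13 in the separate PAC+GA3 libraries. OFP7, at -1.93, and OFP16, at -0.82, were also called lower. The call of OFP16 was lost under total-count scaling and without wild-type replicate 3 or any 35S::KNAT1 replicate.

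Genes of the boundary between meristem and organ rose in part, beside 12.3% of all genes called higher. Of 12 tested, 5 were called higher and 0 lower, and the other 7, CUC2, CUC3, LSH3, LSH1, LSH10, MYB117 and LBD30, had log2 differences between -0.86 and -0.05. Without the 3 high-rRNA libraries 3 were called higher, and a filter at 5 CPM left 2 called, since most of them are near or under 5 CPM. LOB, a transcription factor that marks the base of lateral organs, was at 1.73, 1.66 and 1.51 CPM in wild type and at 3.71, 4.16 and 4.34 CPM in 35S::KNAT1. The groups were clearly separate, with a log2 difference of 1.31 ± 0.21 (edgeR adjusted p = 0.0001254). LSH4, a nuclear protein of the ALOG family that acts under CUC1, was at 6.5, 8.58 and 8.0 CPM and at 13.1, 12.6 and 13.9 CPM (log2 difference 0.78 ± 0.15, edgeR adjusted p = 0.0006594). BOP2, a co-activator of the leaf base, was at 10.7, 10.2 and 10.5 CPM and at 16.8, 14.7 and 16.2 CPM (log2 difference 0.60 ± 0.11, edgeR adjusted p = 0.0004513). LOB, LSH4 and BOP2 were called in every alternative run but the 5 CPM filter, which left out LOB. CUC1, a NAC factor that separates organs, had under 1 CPM in each wild-type library and 2.41, 1.71 and 1.59 CPM in 35S::KNAT1, and lost its call without the 3 high-rRNA libraries. It may have passed the filter only through 35S::KNAT1. BOP1 was higher by 0.84, a call lost without wild-type replicate 1 or 3, 35S::KNAT1 replicate 1 or the 3 high-rRNA libraries.

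**Figure D1:**
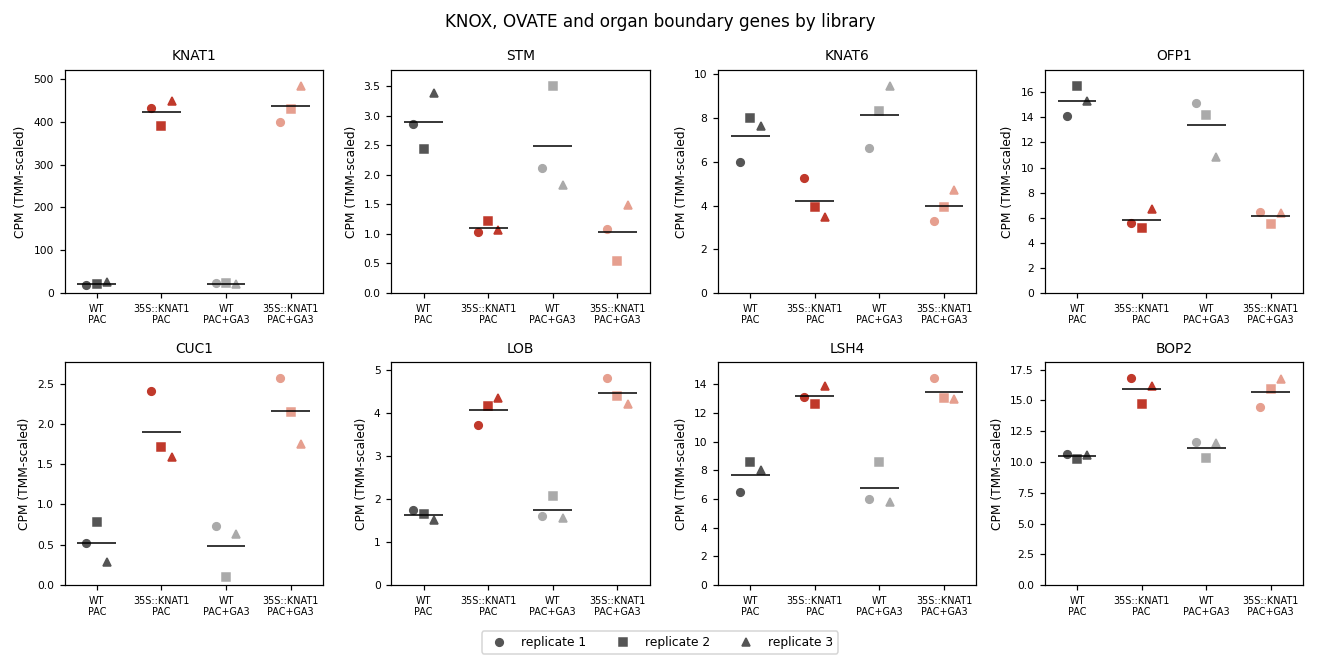
CPM (TMM-scaled, y axis from 0) of KNAT1, STM, KNAT6, OFP1, CUC1, LOB, LSH4 and BOP2 in each library of the 4 groups. Symbols are replicates and lines are group means. Under PAC no gene shown has overlapping genotypes, with STM, KNAT6 and OFP1 lower and the other 5 higher in 35S::KNAT1.

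Leaf development genes were called in both directions, beside 12.3% of all genes called higher and 12.9% lower. Among 10 genes that restrain KNOX activity or promote leaf differentiation, 4 were called higher and 1 lower, each by less than 1.5-fold. AS1, the MYB factor that silences KNAT1 in leaf primordia, was at 42.8, 52.2 and 48.8 CPM in wild type and at 58.5, 67.7 and 61.6 CPM in 35S::KNAT1 (log2 difference 0.39 ± 0.09, edgeR adjusted p = 0.004474). TCP3 was higher by 0.40 and TCP10 lower by 0.55 on the log2 scale, and both calls were lost without the 3 high-rRNA libraries. The count fell from 5 to 3 without wild-type replicate 3, 35S::KNAT1 replicate 1 or 35S::KNAT1 replicate 3, and to 2 without the 3 high-rRNA libraries. Among 14 genes of leaf polarity, 2 were called in each direction, with 2 calls left without 35S::KNAT1 replicate 1 and 1 without the 3 high-rRNA libraries, and ARF4, at 0.41 ± 0.10, kept its call in every alternative. Of the 22 leaf growth genes tested, 3 were called lower and 1 higher, all of them CYP78A cytochrome P450 genes of organ growth. CYP78A9 was 2.19-fold, CYP78A5 1.6-fold and CYP78A6 1.49-fold lower, and CYP78A7 was 1.48-fold higher. CYP78A5 lost its call without wild-type replicate 2, CYP78A6 without 35S::KNAT1 replicate 1, CYP78A7 without any wild-type replicate, and CYP78A7 and CYP78A9 in the DESeq2 test and without wild-type replicate 1 or 35S::KNAT1 replicate 1. All but CYP78A9 were also lost without the 3 high-rRNA libraries. None of the 9 GRF factors and neither AN3 nor ANT was called. Among 8 shoot meristem genes, HEC1, a bHLH factor that keeps stem cells dividing, was the clearest change. It was at 36.7, 28.2 and 19.9 CPM in wild type and at 15.5, 14.4 and 10.7 CPM in 35S::KNAT1, with no overlap (log2 difference -1.05 ± 0.18, edgeR adjusted p = 0.0005964). Paired by replicate number within the 6 libraries, 7 of the 22 leaf growth genes and 5 of the 8 meristem genes were called, in place of 4 and 2. DESeq2 called 2 leaf growth genes and the fit without 35S::KNAT1 replicate 1 called 1, and without the 3 high-rRNA libraries 1 meristem gene was called.

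The circadian clock showed opposite differences in its morning and evening genes. With a single time point and an unknown sampling hour, changed levels, a shifted phase and different harvest hours cannot be told apart. In the plant clock, the MYB factors CCA1 and LHY peak near dawn and repress evening genes such as TOC1, PRR5, GI and ELF4, and the TOC1 and PRR5 proteins in turn repress CCA1 and LHY. CCA1 and LHY bind a motif named the evening element, AAAATATCT. Of 9 morning genes tested, 7 were called lower and 0 higher, beside 12.9% and 12.3% of all genes (median log2 difference -1.15, against 0.004 over all genes). Of 13 genes on the evening list, 8 were called higher and 2 lower. That list also holds ZTL and the CDF genes, so not every member is an evening gene. Without the 3 high-rRNA libraries, 4 morning genes were lower and 7 evening genes higher. With replicates paired, and in the fit of the 6 libraries alone, 4 genes of the evening list were lower and 8 higher.

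LHY was at 81.2, 99.1 and 150.0 CPM in wild type and at 23.2, 15.1 and 31.3 CPM in 35S::KNAT1. The lowest wild-type value was more than 2 times the highest 35S::KNAT1 value, and replicate 3 was the highest in both groups. The log2 difference was -2.26 ± 0.34 (edgeR adjusted p = 0.001134). CCA1 was at 50.3, 68.1 and 83.3 CPM and at 15.1, 10.7 and 18.1 CPM, with replicate 3 again the highest of each group (log2 difference -2.21 ± 0.26, edgeR adjusted p = 0.0001415). RVE8, a related MYB factor that activates evening genes, was at 22.9, 32.4 and 40.9 CPM and at 8.88, 7.59 and 11.1 CPM. It was 3.51-fold lower, and RVE1, a related factor that links the clock to auxin, was 2.22-fold lower. LNK2 and LNK1, co-activators that work with RVE8, were lower by 3.54-fold and 1.75-fold, and PRR9, a morning repressor, by 1.95-fold. Calls of all 3 were lost without the 3 high-rRNA libraries, and that of PRR9 also without wild-type replicate 3 or 35S::KNAT1 replicate 2. RVE2 (log2 difference 0.02) and PRR7 (-0.01) did not pass the test.

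FKF1, a blue light receptor that prepares degradation of CDF repressors, was at 5.55, 10.4 and 6.02 CPM in wild type and at 24.4, 35.5 and 28.1 CPM in 35S::KNAT1. Every 35S::KNAT1 library was at more than 2 times the highest wild-type library, and the log2 difference was 2.01 ± 0.20 (edgeR adjusted p = 4.858e-06). PRR5 was at 15.1, 14.4 and 13.2 CPM and at 36.0, 32.6 and 36.6 CPM (log2 difference 1.298 ± 0.107, edgeR adjusted p = 6.177e-08). PRR3 was 2.43-fold higher, ELF4 1.77-fold, GI 1.76-fold, TOC1 1.57-fold, ELF3 1.44-fold and LUX 1.3-fold. ELF3, ELF4 and LUX together form the evening complex, so all 3 of its subunits rose, although LUX lost its call without wild-type replicate 3 or the 3 high-rRNA libraries. The calls that were lower were CDF1, a target of FKF1, at -0.55, and ZTL, at -0.26. Neither was called under total-count scaling, without wild-type replicate 1 or without the 3 high-rRNA libraries. CDF1 was also lost without wild-type replicate 3 or 35S::KNAT1 replicate 2, and ZTL in the DESeq2 test and without wild-type replicate 2 or 35S::KNAT1 replicate 1 or 3. In the separate PAC+GA3 libraries 6 of the same 7 morning genes were called lower, PRR9 being the exception, beside 13.6% of all genes called lower there. The 8 evening genes that rose under PAC passed the test there too, with log2 differences from 0.38 (LUX) to 1.65 (FKF1).

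**Figure D2:**
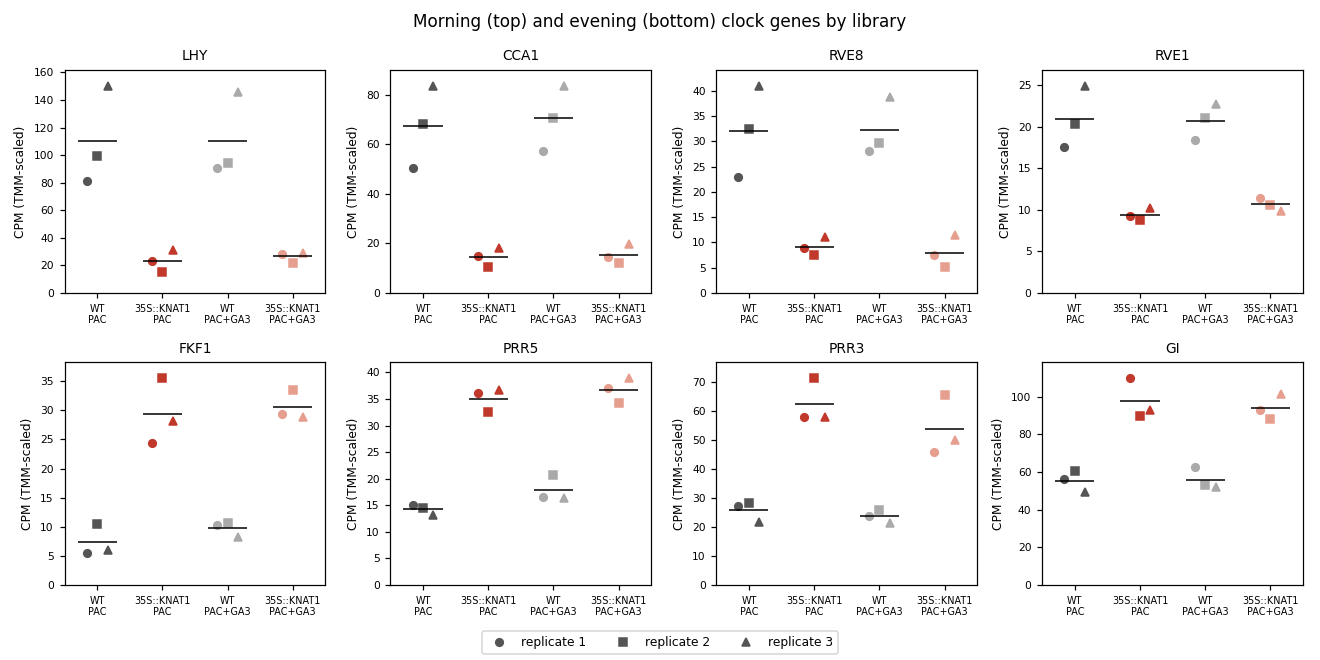
CPM (TMM-scaled, y axis from 0) of the morning genes LHY, CCA1, RVE8 and RVE1 and the evening genes FKF1, PRR5, PRR3 and GI in each library. Symbols are replicates and lines are group means. Morning genes are lower and evening genes higher in 35S::KNAT1 in both media, with no overlap between genotypes.

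The evening element was looked for in the 250 bases before the start of each gene, on both strands, together with AAAAATCT (the CCA1 binding site), CACGTG (the G-box bound by light and clock bHLH and bZIP factors) and TGACAG (a core of KNOX binding sites). None of the 4 motifs contains another. The sequences are those of the TAIR10 reference (Columbia accession), not of the Nossen plants sequenced here, and 19773 promoters were read. The evening element stood in 2.31% of all promoters read, in 4.83% of those of genes called higher and in 1.25% of those of genes called lower. Of the 457 genes with it, 25.8% were called higher and 7.0% lower, beside 12.4% and 13.0% of all genes read. Among the clock genes it stood in the promoters of FKF1, LUX and PRR9, and these letters were not in the windows of the others. The promoters of FKF1 and LUX, evening genes that rose, are shown 5′ to 3′ along the gene's strand, with the evening element or its reverse complement in capitals.
FKF1 (chr1:25508426-25508675, + strand): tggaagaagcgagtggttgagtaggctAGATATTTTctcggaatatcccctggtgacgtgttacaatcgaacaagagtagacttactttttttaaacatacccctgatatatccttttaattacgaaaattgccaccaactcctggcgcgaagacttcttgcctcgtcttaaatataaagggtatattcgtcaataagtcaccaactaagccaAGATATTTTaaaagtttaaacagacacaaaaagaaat
LUX (chr3:17182820-17183069, + strand): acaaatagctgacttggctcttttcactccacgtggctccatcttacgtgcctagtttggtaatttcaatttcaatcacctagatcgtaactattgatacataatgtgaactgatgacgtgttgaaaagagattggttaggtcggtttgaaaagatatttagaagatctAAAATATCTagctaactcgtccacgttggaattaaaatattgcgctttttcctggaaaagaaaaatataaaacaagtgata
FKF1 has 2 matches and LUX 1, which is a description of the letters and not of binding. The G-box went the other way, with 13.2% of promoters of genes called lower, 7.57% of those of genes called higher and 9.03% of all promoters. It stood in 7 of 9 promoters of morning clock genes and in 17 of 43 promoters (39.5%) of light harvesting and photosystem genes. The promoters of LHY and RBCS1A, which were both lower in 35S::KNAT1, are shown with the G-box in capitals.
LHY (chr1:37872-38121, - strand): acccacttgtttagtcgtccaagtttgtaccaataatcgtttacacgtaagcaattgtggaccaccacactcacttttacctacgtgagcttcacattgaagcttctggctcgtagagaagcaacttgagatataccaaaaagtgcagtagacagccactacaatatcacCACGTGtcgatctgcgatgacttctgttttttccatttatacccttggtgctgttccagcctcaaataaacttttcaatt
RBCS1A (chr1:25049425-25049674, - strand): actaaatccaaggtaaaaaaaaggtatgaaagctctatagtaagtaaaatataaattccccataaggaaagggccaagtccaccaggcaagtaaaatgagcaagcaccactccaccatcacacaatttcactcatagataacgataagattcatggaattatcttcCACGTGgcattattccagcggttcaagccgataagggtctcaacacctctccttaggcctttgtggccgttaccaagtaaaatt
Each of these holds the G-box at 1 place. TGACAG stood in 6.1% of all promoters, in 5.73% of those of genes called higher and in 6.35% of those of genes called lower. For the CCA1 binding site the shares were 6.62%, 6.47% and 7.1%.

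Nuclear genes of the photosynthetic apparatus were lower almost throughout. Of 43 genes for antenna proteins, photosystem subunits, the small subunit of Rubisco and Rubisco activase, 39 were called lower and 0 higher, beside 12.9% of all genes called lower, and the median log2 difference was -0.74. Without the 3 high-rRNA libraries 19 were called lower, LHCB2.2 not among them. The 4 that did not pass were LHCB1.2, LHB1B1, LHCB2.3 and PSAG, and the differences ran from -1.6 for LHCB2.2 to -0.15 for PSAG. Members of the RBCS and LHCB1 families are near-identical, and how reads shared between them were counted is not known.

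RBCS1A, the most abundant small subunit gene, was at 13225, 13014 and 13065 CPM in wild type and at 6034, 6482 and 7521 CPM in 35S::KNAT1. The 2 groups were far apart and wild type hardly varied (log2 difference -0.97 ± 0.12, edgeR adjusted p = 8.349e-06). RCA, which encodes Rubisco activase, was at 5136, 4867 and 5546 CPM and at 2244, 2133 and 2604 CPM, 2.23-fold lower. PSBO2, a subunit of the oxygen-evolving complex, was 2.26-fold lower. Summed over the 43 genes, the level was between 93400 and 103000 CPM in wild type and between 46900 and 64500 CPM in 35S::KNAT1. In whole seedlings, fewer green cells and less of these RNAs per green cell cannot be told apart.

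**Figure D3:**
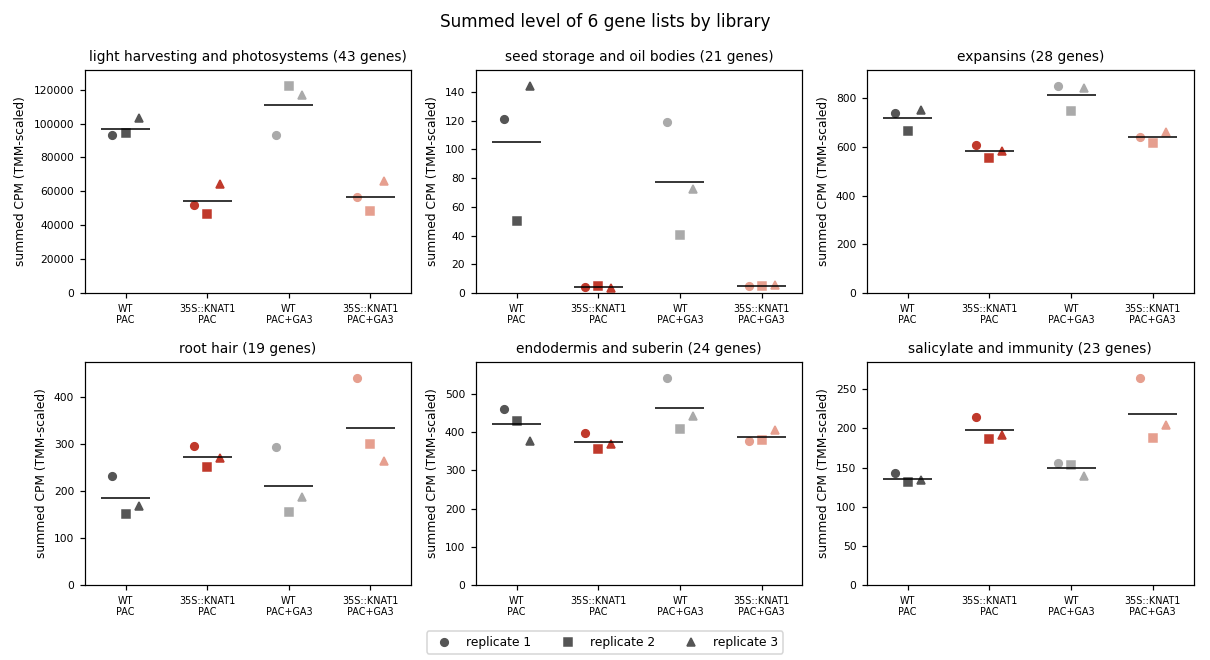
Summed CPM (TMM-scaled, y axis from 0) in each library of 6 gene lists: light harvesting and photosystems, seed storage, expansins, root hair, endodermis and suberin, and salicylate and immunity. Symbols are replicates and lines are group means. Under PAC the sums for light harvesting, seed storage and expansins are lower in every 35S::KNAT1 library, those for root hairs and immunity are higher, and those for the endodermis overlap.

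Genes of GA metabolism were called about as often as all genes, of which 25.2% were called. Of 7 synthesis genes tested, 1 was called, and 2 were without 35S::KNAT1 replicate 1, without the 3 high-rRNA libraries or with replicates paired, and 3 under total-count scaling. GA2, which encodes ent-kaurene synthase, was at 11.3, 11.4 and 11.3 CPM in wild type and at 19.5, 19.6 and 20.0 CPM in 35S::KNAT1 (log2 difference 0.80 ± 0.10, edgeR adjusted p = 9.159e-06). GA20OX2, GA3OX1 and GA3OX2, which catalyse the last steps of synthesis, did not pass. Of 6 catabolic genes 2 were called lower, of which GA2OX6 fell by 0.75 on the log2 scale and GA2OX4, which had at most 1.32 CPM in any library, lost its call without wild-type replicate 2 or 3, 35S::KNAT1 replicate 1 or 3 or the 3 high-rRNA libraries, under total-count scaling and in the fit of the 6 libraries alone. Among 11 signalling genes 2 were called higher and 3 lower, and 1 in each direction without the 3 high-rRNA libraries. GAI, which encodes a DELLA repressor, was at 38.4, 42.2 and 42.9 CPM in wild type and at 26.8, 25.4 and 27.4 CPM in 35S::KNAT1 (log2 difference -0.63 ± 0.09, edgeR adjusted p = 4.768e-05). The DELLA gene RGL2 was also called lower, at -0.56, a call lost under total-count scaling and without wild-type replicate 3, 35S::KNAT1 replicate 1 or 3 or the 3 high-rRNA libraries, and RGA, RGL1 and RGL3 were not called. SLY1, the F-box protein that targets DELLA proteins for degradation, was higher by 0.56. The GA receptor genes GID1B and GID1A were at -0.67 and 0.33, and both calls were lost without the 3 high-rRNA libraries.

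Cytokinin synthesis genes split. Of 11 tested, 2 were higher and 2 lower, and under total-count scaling 5 and 2. IPT2, an isopentenyltransferase that modifies tRNA, was at 3.47, 2.05 and 2.73 CPM in wild type and at 10.5, 10.0 and 9.42 CPM in 35S::KNAT1, with no overlap (log2 difference 1.85 ± 0.18, edgeR adjusted p = 5.578e-07). LOG7, an enzyme that releases active cytokinin, was 1.60-fold higher. LOG5 and CYP735A2 were lower, calls that were lost without the 3 high-rRNA libraries, and that of LOG5 also without wild-type replicate 2. IPT3, IPT5 and IPT7, which make cytokinin from free adenine nucleotides, were not called. Among the 5 breakdown genes CKX7 was 1.68-fold higher, and CKX5 lower by 0.82 on the log2 scale, a call lost without the 3 high-rRNA libraries. Of 9 type-A response regulators, which respond to cytokinin within minutes in wild-type plants, 0 were called by edgeR and 0 by DESeq2, and 3 had an unadjusted edgeR p below 0.05. With replicates paired within the 6 libraries 3 were called, 1 higher and 2 lower, and over all 12 libraries 2. Without wild-type replicate 1 there were 2 calls, and 1 without wild-type replicate 2, without 35S::KNAT1 replicate 1 or under total-count scaling.

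Auxin genes that were called were lower. Of 22 genes of auxin synthesis and transport, 7 were called lower and 0 higher, beside 12.9% and 12.3% of all genes. Of 23 Aux/IAA genes, which encode auxin-responsive repressors, 6 were lower and 0 higher. With replicates paired 7 Aux/IAA genes were lower and 2 higher, and under total-count scaling 5 and 2. Without the 3 high-rRNA libraries the counts lower were 2 and 3, with 1 Aux/IAA gene higher, and without 35S::KNAT1 replicate 3 the first count was 4. IAA29 was at 14.7, 15.8 and 18.16 CPM in wild type and at 3.36, 2.45 and 1.69 CPM in 35S::KNAT1. Its 35S::KNAT1 libraries were all far below the lowest wild-type library (log2 difference -2.67 ± 0.25, edgeR adjusted p = 1.407e-06). IAA2 was 1.65-fold and IAA17 1.41-fold lower. PIN4, an auxin efflux carrier, was at 109, 101 and 104 CPM and at 79.5, 78.9 and 76.9 CPM, a small difference with no overlap. YUC8 and YUC9, which make auxin in shade and warmth, were lower by 1.296 and 1.02 on the log2 scale and lost their calls without the 3 high-rRNA libraries. Of 14 brassinosteroid genes 3 were higher and 1 lower. UGT73C5, a glucosyltransferase that inactivates brassinosteroids, was 2.18-fold higher and the only one of the 4 called in every alternative, and the others were lost without the 3 high-rRNA libraries.

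Genes of cell elongation were called in both directions, more of them lower, beside 12.9% of all genes called lower and 12.3% higher. Of 17 genes of shade growth and of the phytochrome-interacting (PIF) factors, 4 were called lower and 1 higher. XTH15, a xyloglucan-modifying wall enzyme, was at 91.9, 90.0 and 60.0 CPM in wild type and at 25.4, 26.5 and 23.4 CPM in 35S::KNAT1 (log2 difference -1.68 ± 0.18, edgeR adjusted p = 1.531e-05). PIF1, which acts mainly in seeds and dark-grown seedlings, was 1.51-fold higher, whereas PIF3, PIF4, PIF5 and PIF7 were not called. With replicates paired, 8 of the 17 were called, 7 of them lower. Without the 3 high-rRNA libraries 2 were lower and 1 higher, BBX25 and PAR1 no longer being called, and BBX25 was also not called with replicates paired within the 6 libraries. Of 24 expansins, proteins that loosen the wall, 7 were called lower and 2 higher, and 6 and 1 without the 3 high-rRNA libraries.

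EXPB3 was at 67.4, 63.3 and 87.5 CPM in wild type and at 22.7, 24.9 and 23.1 CPM in 35S::KNAT1. The groups did not overlap and wild-type replicate 3 stood highest (log2 difference -1.63 ± 0.11, edgeR adjusted p = 2.976e-09). EXLB1 was at 13.3, 11.9 and 12.1 CPM and at 3.19, 2.94 and 3.17 CPM, 4.01-fold lower. EXPA15 was 2.37-fold and EXPA4 1.85-fold lower. EXPA2 had the largest difference of the list, 50.6-fold lower. Its call was lost without wild-type replicate 1 or 3, without any 35S::KNAT1 replicate and in the fit of the 6 libraries alone. EXPA2 may have passed the filter only through wild type, so its call adds no support to the count of expansins called lower. The higher members were EXPA1, a guard cell expansin, whose call was lost without 35S::KNAT1 replicate 1, and EXPA7, a root hair expansin, whose call was lost without wild-type replicate 2, 35S::KNAT1 replicate 1 or the 3 high-rRNA libraries. A block of replicates over all 12 libraries called 10 expansins lower and 4 higher.

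Genes of wood and secondary walls, the subject of the series, are set here beside all genes, of which 25.2% were called under PAC and 12.9% were called lower. Of 15 genes for cellulose and xylan of secondary walls, 2 were lower, and CESA4, CESA7 and CESA8 were not called. Of 15 tested regulators of vessels and fibres, 1 was higher (XCP1, a vessel protease, 0.42) and 1 lower (MYB20, -0.89), and of 18 cambium and phloem genes 4 were lower, WOX4, PXY, HB-8 and OPS. These counts rest on single libraries. Wall genes called numbered 0 without 35S::KNAT1 replicate 1 and 1 without wild-type replicate 3, and vessel and fibre regulators 0 without 35S::KNAT1 replicate 2 and 1 without replicate 3. XCP1 was also lost without wild-type replicate 1. Of the cambium and phloem genes, 1 was called without wild-type replicate 3 or 35S::KNAT1 replicate 3 and under total-count scaling, and 2 without wild-type replicate 2 or 35S::KNAT1 replicate 1. Without the 3 high-rRNA libraries 0 wall, 0 cambium and phloem genes and 1 vessel and fibre regulator were called. With replicates paired within the 6 libraries, 4 wall genes were lower, as were 3 of the 4 vessel and fibre regulators called.

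WOX4, a homeodomain factor of cambium cells, was at 3.81, 4.097 and 4.23 CPM in wild type and at 2.15, 2.04 and 2.33 CPM in 35S::KNAT1 (log2 difference -0.90 ± 0.20, edgeR adjusted p = 0.003146). It was the only 1 of the 4 to keep its call without each single library, although not without the 3 high-rRNA libraries. Of 22 lignin synthesis genes 8 were lower and 1 higher, or 3 and 1 without the 3 high-rRNA libraries and 4 called in all without 35S::KNAT1 replicate 2 and 5 under total-count scaling. PAL3 and PAL4, which both encode the enzyme that opens the phenylpropanoid pathway, moved in opposite directions. PAL3 was at 5.81, 6.15 and 7.06 CPM in wild type and at 22.8, 22.5 and 25.1 CPM in 35S::KNAT1, 3.70-fold higher (edgeR adjusted p = 3.366e-08). PAL4 was at 16.2, 18.6 and 15.5 CPM and at 10.3, 9.22 and 7.62 CPM, 1.85-fold lower (edgeR adjusted p = 2.471e-05). PAL1 and PAL2 did not pass the test.

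Genes of the epidermis and its cell types differed in part, beside 12.3% of all genes called higher and 12.9% lower. Of 10 trichome genes, 4 were called lower and 0 higher, and 2 without the 3 high-rRNA libraries, in the DESeq2 test and under total-count scaling. Without wild-type replicate 3 or 35S::KNAT1 replicate 3 there were 2, and without 35S::KNAT1 replicate 1 there was 1. GL1, the MYB factor that starts trichomes, was at 1.82, 1.95 and 3.39 CPM in wild type and at 0.431, 0.489 and 0.741 CPM in 35S::KNAT1, with no overlap (log2 difference -2.11 ± 0.35, edgeR adjusted p = 0.0001945). Under PAC GL1 could pass the filter only through wild type, so its call adds no support to the count of trichome genes called lower. Of 20 genes of epidermis and wax, 3 were higher and 5 lower. CER1, an enzyme of wax alkane synthesis, was at 27.4, 23.9 and 27.2 CPM and at 8.01, 11.01 and 11.6 CPM (log2 difference -1.36 ± 0.13, edgeR adjusted p = 3.556e-07). CER2 was 1.43-fold lower and CER8 1.43-fold higher. ATML1, which specifies the epidermis, was 1.34-fold higher. Of 16 stomatal genes the only call was KAT1, a guard cell potassium channel, at -0.63, which was lost without wild-type replicate 3 or the 3 high-rRNA libraries. Leaving out wild-type replicate 1 gave 2 stomatal calls and pairing within the 6 libraries 3, while SPCH, MUTE and FAMA, which drive the lineage, were not called.

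Root markers showed that both genotypes held root tissue. The sum of 19 root hair genes was 233, 152 and 168 CPM in wild type and 295, 252 and 271 CPM in 35S::KNAT1, higher in each 35S::KNAT1 library. Gene by gene, 4 of 18 tested were called higher and 1 lower, but 0 without the 3 high-rRNA libraries, 1 in all without wild-type replicate 2 or 35S::KNAT1 replicate 1, 2 without 35S::KNAT1 replicate 3 and 3 without wild-type replicate 3. With replicates paired within the 6 libraries 10 were higher and 1 lower, DESeq2 called 8 in all and the fit of the 6 libraries alone 9. Among all genes, 12.3% were called higher and 12.9% lower in the main fit. RHS13 was at 24.4, 13.8 and 17.8 CPM in wild type and at 38.3, 30.7 and 35.8 CPM in 35S::KNAT1, with the first replicate highest in each group, and its call was lost without wild-type replicate 2 or 3 or 35S::KNAT1 replicate 1 or 3. The sum of 24 endodermis and suberin genes ran from 378 to 460.0 CPM in wild type and from 356 to 397 CPM in 35S::KNAT1, and 3 of 22 tested were lower. CASP5, a Casparian strip protein, was 6.11-fold lower at a level near 2 CPM in wild type, and CASP1 to CASP4 were not called. Under PAC CASP5 could pass the filter only through wild type, so its call supports no direction. The call of SHR was lost without wild-type replicate 2 or 3 or 35S::KNAT1 replicate 1 or 3, and that of FAR1 without wild-type replicate 1 or 2 or any 35S::KNAT1 replicate and with replicates paired over all 12 libraries, and 1 endodermis call was left without wild-type replicate 2, 35S::KNAT1 replicate 1 or 35S::KNAT1 replicate 3. With replicates paired within the 6 libraries 6 were called, 2 higher and 4 lower.

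**Figure D4:**
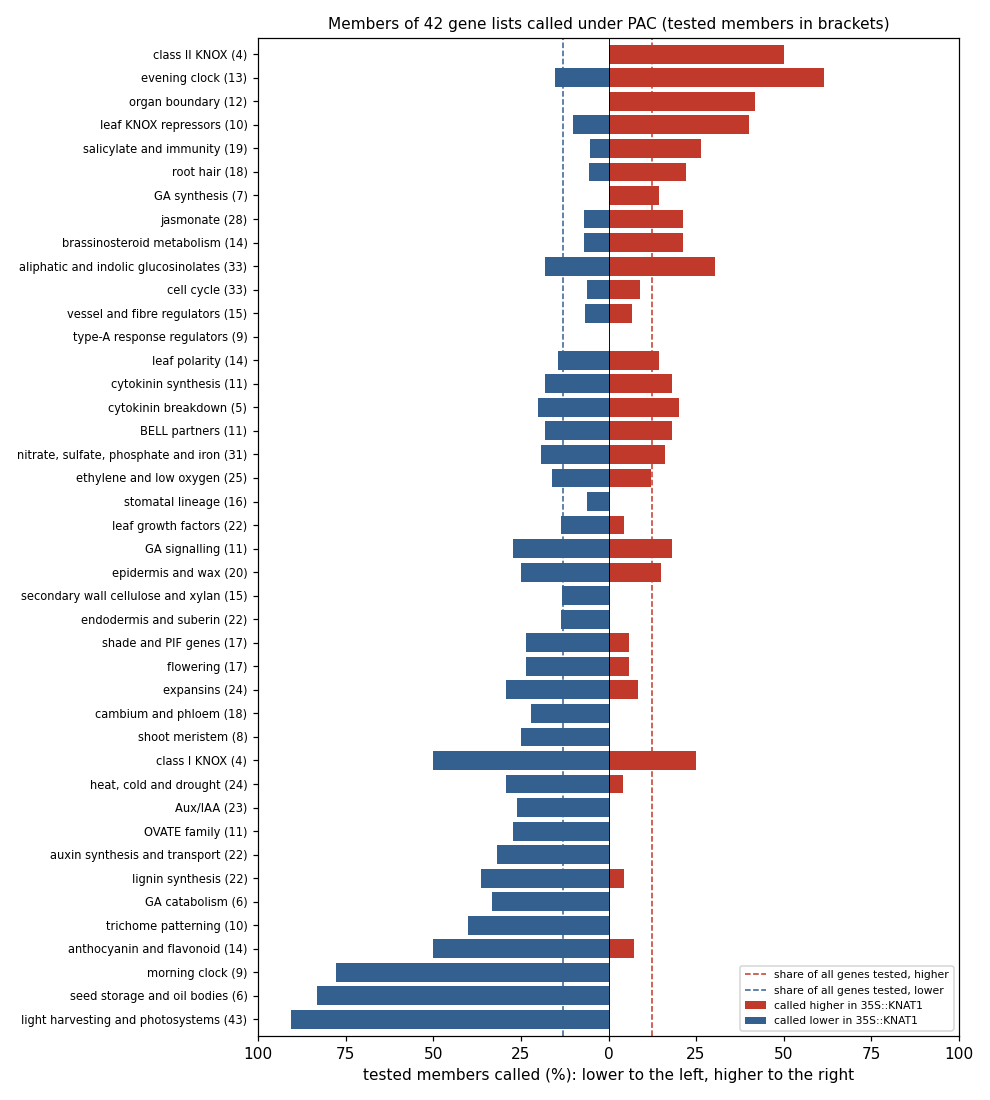
Share of tested members called higher (right) and lower (left) in 35S::KNAT1 under PAC for each of 42 gene lists, with the number tested in brackets. Dashed lines are the shares of all tested genes, 12.3% higher and 12.9% lower. The light harvesting, seed storage and morning clock lists reach furthest to the left, and the evening clock list furthest to the right, but the seed storage members called could pass the filter only through wild type, so that bar supports no direction.

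Immune genes were higher in part. Of 19 genes of salicylate and immunity, 5 were called higher and 1 lower (PR5, a call lost without wild-type replicate 1), beside 12.3% of all genes called higher, and with replicates paired within the 6 libraries 9 were higher. ACD6, a membrane protein whose natural alleles set the level of defence, had 0, 1 and 0 counts in wild type and 259, 273 and 214 counts in 35S::KNAT1. The ratio was 726, with an exact 95% counting interval from 130.0 to 28700. Under PAC ACD6 could pass the filter only through 35S::KNAT1, so its call adds no support to the count of genes called higher. SARD1 and CBP60g, factors that switch on salicylate synthesis, were 3.74-fold and 3.18-fold higher. SARD1 was at 1.73, 1.56 and 2.07 CPM and at 7.84, 5.79 and 6.56 CPM (edgeR adjusted p = 0.001882). WRKY70 was at 7.28, 6.34 and 6.304 CPM and at 14.4, 14.3 and 15.6 CPM, 2.21-fold higher (edgeR adjusted p = 0.00532). PR1, ICS1, PAD4, EDS1 and NPR1 were not called.

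The jasmonate list went both ways, beside 12.3% of all genes called higher and 12.9% lower. Of 28 genes 6 were higher and 2 lower, and 3 and 2 without the 3 high-rRNA libraries. CORI3, a cystine lyase induced by jasmonate, was at 9.01, 7.12 and 7.25 CPM in wild type and at 106, 115 and 143 CPM in 35S::KNAT1, 15.5-fold higher (edgeR adjusted p = 4.771e-07). AOC1, an enzyme of jasmonate synthesis, was 1.8-fold higher. THI2.1, a thionin, had 0 counts in wild type and 42 over the 35S::KNAT1 libraries, at least 13.6-fold higher against a floor of 3 counts over the group. Under PAC THI2.1 could pass the filter only through 35S::KNAT1, so its call supports no direction. VSP1, a storage protein induced by jasmonate, fell from 57.0 ± 15.7 to 17.61 ± 3.45 CPM (SD, n = 3), a call lost with replicates paired within the 6 libraries. VSP2 rose from 0.648 ± 0.341 to 2.96 ± 0.925 CPM, a call lost without wild-type replicate 1 or 2, 35S::KNAT1 replicate 2 or 3 or the 3 high-rRNA libraries. VSP2, too, could pass the filter under PAC only through 35S::KNAT1, so its call supports no direction. LOX2, a chloroplast lipoxygenase, was lower by 1.02 on the log2 scale, a call lost without 35S::KNAT1 replicate 1 and in both fits of the 6 libraries alone. JAZ1, JAZ10, MYC2 and OPR3 were not called.

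Glucosinolates are the sulfur compounds that Brassicaceae cleave with myrosinases on wounding. Genes of the pathway are set beside all genes, of which 12.3% were called higher and 12.9% lower. Of 33 genes of this pathway, 10 were called higher and 6 lower, and 6 and 2 without the 3 high-rRNA libraries. TGG2, 1 of the 2 leaf myrosinases tested, was at 133, 136 and 134 CPM in wild type and at 3.19, 3.998 and 3.597 CPM in 35S::KNAT1. Replicates were within a few percent of each other in wild type, and the log2 difference was -5.22 ± 0.13 (edgeR adjusted p = 5.95e-15). TGG1, the other myrosinase, was 1.35-fold lower, a call lost without wild-type replicate 2, 35S::KNAT1 replicate 1 or the 3 high-rRNA libraries and under total-count scaling. MAM3, which lengthens the side chain of aliphatic glucosinolates, was at 128, 127 and 136 CPM and at 219, 217 and 208 CPM, 1.65-fold higher (edgeR adjusted p = 2.289e-06). MYB51, a regulator of indolic glucosinolates, was 2.15-fold higher, while MYB34, which acts in the same branch, was 1.32-fold lower, a call lost without wild-type replicate 3 or the 3 high-rRNA libraries. NSP5, a nitrile-specifier protein, was 1.61-fold lower.

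Several late anthocyanin genes were lower, beside 12.9% of all genes called lower and 12.3% higher. Of 14 flavonoid genes 7 were called lower and 1 higher, with the same counts without the 3 high-rRNA libraries. DFR, which opens the anthocyanin branch, was at 5.98, 3.90 and 5.46 CPM in wild type and at 0.776, 0.979 and 2.22 CPM in 35S::KNAT1, 3.99-fold lower with no overlap (edgeR adjusted p = 0.0009822). DFR may have passed the filter only through wild type. UGT79B1 and UGT75C1, glycosyltransferases that decorate anthocyanins, were 5.82-fold and 3.29-fold lower. CHI, earlier in the pathway, was 1.54-fold lower, and CHS, the first enzyme, was not called. MYB12, which activates flavonol genes, was 1.62-fold higher. With the 5 CPM filter 3 of these genes were called, since most are below it.

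Ethylene, cold and drought genes held single large differences. Of 25 ethylene and low-oxygen genes, 3 were called higher and 4 lower, near the 12.3% and 12.9% of all genes. With replicates paired within the 6 libraries 12 were called, 6 in each direction, and 11 with all 12. ETR2, an ethylene receptor, was at 43.5, 41.4 and 41.9 CPM in wild type and at 14.3, 18.8 and 17.2 CPM in 35S::KNAT1, 2.51-fold lower (edgeR adjusted p = 1.704e-07). RAP2.3, a factor of the ERF-VII group that senses oxygen, was at 222, 233 and 144 CPM and at 447, 449.9 and 454 CPM, 2.26-fold higher (edgeR adjusted p = 1.783e-05). Of 24 genes of heat, cold and drought, 7 were lower and 1 higher, and 6 and 0 without the 3 high-rRNA libraries. RD29B, which abscisic acid induces, was at 5.98, 5.17 and 6.21 CPM and at 1.21, 0.653 and 1.06 CPM, 5.96-fold lower (edgeR adjusted p = 2.786e-05). RD29B may have passed the filter only through wild type. COR15A, a chloroplast cold protein, was 2.61-fold and HSP101, a heat shock chaperone, 1.92-fold lower.

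Of 31 genes of nitrate, sulfate, phosphate and iron nutrition, 5 were higher and 6 lower, or 3 in all without the 3 high-rRNA libraries and 7 in all without any 1 of the 35S::KNAT1 libraries. Among all genes, 12.3% were called higher and 12.9% lower. SPX1, a phosphate sensor, was 1.53-fold higher. Of 33 cell cycle genes 3 were higher and 2 lower, and 2 and 1 without the 3 high-rRNA libraries. KRP2, a cyclin-dependent kinase inhibitor, was 1.56-fold higher, and SIM, an inhibitor that promotes endoreplication, was 1.53-fold lower, while none of the 8 CYCB genes tested was called. In all 10 cell cycle genes were called without wild-type replicate 1 and also with replicates paired within the 6 libraries. Of 17 flowering genes 1 was higher and 4 lower, and 8 were called with replicates paired within the 6 libraries. MAF3 was 1.72-fold higher and MAF5 4.16-fold lower, both relatives of the repressor FLC in a gene cluster of similar sequence, so reads may be shared between them. Flowering calls numbered 3 without wild-type replicate 3, without 35S::KNAT1 replicate 2 and without the 3 high-rRNA libraries.

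Seed storage genes were nearly absent from 35S::KNAT1. Of 21 fixed genes 6 passed the filter, and 5 of these were called lower, all of which could pass only through wild type, so that this count supports nothing about direction. CRU3, a cruciferin storage protein, had 555, 143 and 551 counts in wild type and 0 in each 35S::KNAT1 library, at least 428-fold lower. Wild-type replicate 2 was the lowest of its group, and the edgeR call (adjusted p = 0.02813) was lost without wild-type replicate 1 or 3, without 35S::KNAT1 replicate 1 or 2, without the 3 high-rRNA libraries and in the fit of the 6 libraries alone. CRA1, a second cruciferin, was at 53.5, 25.2 and 66.4 CPM in wild type and at 0.172, 0.0816 and 0.106 CPM in 35S::KNAT1 (edgeR adjusted p = 0.00026). The oleosins OLEO1 and OLEO2, which coat oil bodies, were at 0 in 35S::KNAT1, at least 65.8-fold and 57.5-fold lower. SESA1, an albumin with 1 count in 35S::KNAT1, had a ratio of 52.4 (exact 95% counting interval 8.99 to 2110), and its call was lost without 35S::KNAT1 replicate 1 or 2, either of which left 3 seed genes called. Summed over the 21 genes, the level was 121, 49.8 and 144 CPM in wild type and 4.05, 4.97 and 3.70 CPM in 35S::KNAT1. PAC+GA3 showed the same separation, with 119, 40.7 and 72.3 CPM in wild type and 5.13, 4.75 and 5.51 CPM in 35S::KNAT1.

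The largest rises among genes with a symbol and a group mean of at least 5 CPM were led by retroelements and metabolic enzymes. SADHU3-2 and SADHU3-1, short non-coding retroelements of chromosome 3, had 0 counts in wild type and at least 379-fold and 274-fold higher levels in 35S::KNAT1. HSD2, a hydroxysteroid dehydrogenase, had 1 count over wild type and 1575 over 35S::KNAT1, and SADHU6-1 had 1 and 1404. PLC8, a phospholipase C, had 4 counts over wild type and was at a mean of 43.0 CPM in 35S::KNAT1. ST4C, a sulfotransferase, had 1 count and 359 counts. OSM34, an osmotin-like defence protein, was at 2.77, 1.46 and 1.98 CPM in wild type and at 58.1, 86.3 and 107 CPM in 35S::KNAT1, 39.7-fold higher (edgeR adjusted p = 2.25e-08). AIG1 and WRR4, an immune receptor against white rust, rose by 4.55 and 4.37 on the log2 scale, and ACD6 completes the 10.

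The largest falls by the same rule were seed genes and others at or near 0 in 35S::KNAT1. Besides CRU3, OLEO1, OLEO2 and CRA1 they were PER1, a seed peroxiredoxin, at least 82.2-fold lower, emb2204, at least 66.1-fold lower, and CYP705A13, a cytochrome P450, at least 63.0-fold lower. BGLU19, a beta-glucosidase, had 430 counts over wild type and 3 over 35S::KNAT1, a ratio of 147 (exact 95% counting interval 50.1 to 717). MIOX1, a myo-inositol oxygenase, had 222 and 2 counts. HR4, a relative of the RPW8 mildew resistance genes, was at 39.3, 16.8 and 16.1 CPM in wild type and at 0.345, 0.245 and 0.106 CPM in 35S::KNAT1 (log2 difference -6.59, edgeR adjusted p = 0.001006). Among 87 transposable element genes tested, 34 were called higher and 25 lower, beside 12.3% and 12.9% of all genes. The 19 and 6 of them at 0 in 1 genotype could pass the filter only through the other, so these counts support no direction. By chromosome, between 23.5% (chromosome 2) and 28.4% (chromosome 4) of tested genes were called. Smaller regions were less even. In bins of 1 Mb, 42.9% of 163 tested genes were called in bin 23 of chromosome 1 and 15.5% of 232 in bin 2 of chromosome 5. The reason for this unevenness was not tested.

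The 6 PAC+GA3 libraries, which share no library with the PAC comparison, gave nearly the same genotype difference. There 5077 genes were called (25.5%), 2382 of them higher and 2695 lower (13.6%). Of the genes called higher under PAC, 1817 were also called higher under PAC+GA3, which is 74.4% of the PAC list and 76.3% of the PAC+GA3 list. Of those called lower, 2049 were shared, 79.6% and 76.0% of the lists. No gene was called in opposite directions, and 99.4% of the genes called under PAC had the same sign under PAC+GA3. Across all tested genes the Pearson correlation of the 2 log2 differences was 0.944 and Spearman's 0.81, as a description across genes, which are not independent replicates. Libraries of 1 genotype share their line background in both media.

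KNAT1 was 19.7-fold higher under PAC+GA3, at 22.3, 22.5 and 21.6 CPM in wild type and at 399, 430.2 and 483 CPM in 35S::KNAT1. TGG2 was 36.2-fold and IAA29 2.14 log2 units lower there, and light harvesting genes were lower in 40 of 43 cases. The difference between the 2 genotype effects was tested as an interaction. It was called for 0 genes (0.0%) by edgeR, for 0 by DESeq2 and for 0 with replicates paired over the 12 libraries, and 363 genes had an unadjusted p below 0.05. Among named genes the smallest unadjusted interaction p was 0.007957, for GA2OX4, whose log2 difference was -2.47 under PAC and 0.60 under PAC+GA3, at levels near the lowest that could be tested. Genes of the chloroplast and mitochondrial genomes had a median log2 difference of -2.06 under PAC, with 8 of 102 called lower, and they make up a group of points left of the diagonal in the plot of both media.

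**Figure D5:**
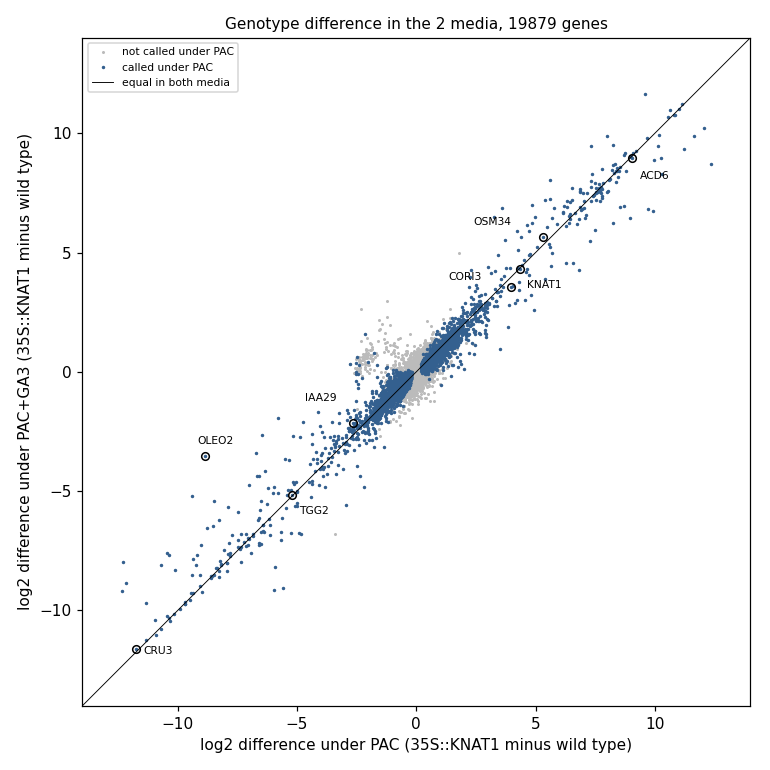
Log2 difference between genotypes (35S::KNAT1 minus wild type) under PAC (x axis) and under PAC+GA3 (y axis) for 19879 genes. Blue points were called under PAC, grey points were not, circles mark the genes labelled and the line marks equal differences. Most called genes lie along the line over the whole range.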

How the data were processed

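RNA from whole Arabidopsis seedlings was sequenced in 12 libraries, 3 in each of 4 groups. The deposited table of the authors holds raw read counts for 32673 rows, 1 per gene, of which 9247 had no count. Per the submitters' processing notes, the build was TAIR10 and the tools were edgeR 3.0.2, DESeq2 1.16.1, TopHat2 2.1, FastQC 0.11.5 and cutadapt 1.8.3, with roles not given. How reads were counted, and whether by strand, is not stated in these sources, and the labels name both a stranded and an unstranded TruSeq kit, so counts of overlapping, antisense and near-identical genes are uncertain.

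From these counts, genes were filtered with filterByExpr (minimum count 10), scaled with TMM and fitted with edgeR 4.0.16 in R 4.3.3 (glmQLFit, robust) with 1 mean per group over the 12 libraries. The contrasts were 35S::KNAT1 minus wild type in each medium and their difference. A gene was called when its p, after Benjamini-Hochberg adjustment, was below 0.05, and SE is the log2 difference over the square root of F. The common biological coefficient of variation was 10.32%. Alternatives were DESeq2 1.42.0 (its test and its size factors), no count filter, total-count scaling, a filter at 5 CPM in 3 libraries, removal of rRNA and organelle genes, the 6 libraries alone, a replicate block, each library left out, and the 3 libraries of highest rRNA share left out. For the interaction, DESeq2 and the block were added after the data had been seen. On simulated counts for the PAC comparison, with 200 of 19879 genes changed, the fit recovered 71% of genes changed by 1 log2 unit and 95% of those changed by 2. Far more genes were called in the data, so these rates need not hold there.

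Of 812 entries in 42 fixed lists, some shared between lists, 811 matched a gene. The members and lists were chosen with earlier results of these data known. Named genes are KNAT1, all tested KNOX, BELL and boundary genes, up to 4 called members of smallest p in each other list, and the 10 largest rises and falls with a symbol, a group mean of at least 5 CPM and no overlap. Other genes named were chosen after their values were seen. No pair of replicates differed by as little as sampling noise (chi-square of 3.81 or more per degree of freedom). The labels number the replicates and state no pairing. Under PAC, same-numbered libraries deviated together from their group means (r of 0.2504, 0.22 and 0.1026), but wild-type replicate 3 and 35S::KNAT1 replicate 2 also had r of 0.1088. These values do not settle whether the numbers pair the libraries. The fit reported has no block, and pairing by number was run as an alternative only. Under PAC+GA3 r was 0.1344, -0.02896 and 0.07902. Promoter sequences are those of RefSeq's TAIR10.1 genome.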

Additional observations from a re-analysis of the deposited data

How the results depend on the processing

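The number of genes called under PAC stayed within 1.5 times the 5017 reported in every alternative except without the 3 high-rRNA libraries, where it was 2524. That fit has 1 wild-type library under PAC, assumed to vary like the other groups, and the cause was not tested. Leaving out 1 library gave between 3838 and 4927 genes under PAC, between 3954 and 4893 under PAC+GA3, and a KNAT1 log2 difference between 4.25 and 4.49. With the replicate block 6169 genes were called under PAC over 12 libraries and 6812 within the 6, and under PAC+GA3 6297 and 5282. Of 176 named genes 159 were called, and 90 of these lost it in none of the alternatives that tested them, of which there were at most 16. At least 1 fit that left out a library lost 41, the fit without the 3 high-rRNA libraries 59, total-count scaling 12 and DESeq2 7. PHB, a regulator of leaf polarity, reversed without the 3 high-rRNA libraries, from -0.30 to 0.0152. Where the 5 CPM filter lowered a list's count, fewer genes were tested. Among the 176 named genes the block changed no other call than those of BEL1, BLH6, BBX25 and FAR1. Depth limits the genes near 1 CPM, whose values rest on few counts per library.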
